A study of Homo sapiens with 4 samples.

Results

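The genes described here were the EGFR (ERBB) family of receptor tyrosine kinases and the growth factors of the EGF type that bind them. They were chosen by gene name, with earlier results of these data already known. The receptors were EGFR, ERBB2, ERBB3 and ERBB4, and the ligands AREG, EREG, HBEGF, TGFA, NRG1 and BTC. These were 10 of the 26485 gene names in the tables. Their mRNA was measured by RNA sequencing in SW1736 and 8505C, established human cell lines derived from anaplastic thyroid cancer (ATC), an undifferentiated carcinoma of the thyroid. For each line 1 library came from parental cells (SW1736 wt, 8505C wt) and 1 from cells that had grown for 6 months in paclitaxel, a microtubule-stabilizing taxane, raised from 1 nM to 1.5 µM (SW1736-PTX, 8505C-PTX). The PTX cells were then kept in 1.5 µM paclitaxel, whereas wt cells received none. Each condition was a single library, so no value had a replicate error, no p-value was computed, and a difference between libraries cannot be told apart from culture, passage or the drug present in the medium. Whether the PTX cells were clones or pools is not given in the sources used here.

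In this receptor family, a ligand outside the cell brings receptors together in pairs, whose intracellular kinase domains then phosphorylate each other and start signalling through the RAS-ERK and PI3K-AKT cascades. EGFR binds EGF, TGFA, AREG and EPGN, and it shares HBEGF, EREG and BTC with ERBB4. ERBB2 has no known ligand of its own and acts as a preferred partner. ERBB3 binds neuregulins such as NRG1, has little kinase activity and couples strongly to PI3K. The ligands are made as membrane-anchored precursors that metalloproteases of the ADAM family cut from the surface. EGF is a classical growth factor of cultured thyroid epithelial cells, and EGFR is known to be abundant in ATC.

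Levels are given as FPKM, the aligned fragments scaled to gene length and to library depth. The scaling is meant to let levels be compared between genes, but some orders changed when read coverage was used instead, as given below. Differences are log2((A + 0.1)/(B + 0.1)) on FPKM, called the log2 fold change below, and the added 0.1 makes them smaller than the plain ratio for genes of low FPKM. A gene was compared when either library of a pair exceeded 0.5 FPKM, and it was called higher above a log2 fold change of 1.5 and lower below -1.5. "Rose" and "fell" are used only of such calls, which rest on size alone. The libraries held between 43.5 and 57.9 M reads as estimated from coverage. Where an interval is given, it is a 95% exact binomial interval on the approximate reads of each gene, and it covers counting error only.

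The library labelled SW1736-PTX stood closer to the 8505C libraries than to its own parent. Over 14692 genes, its Pearson correlation of log2(FPKM + 0.1) was 0.767 with SW1736 wt, 0.873 with 8505C wt and 0.933 with 8505C-PTX, and the genes are not independent replicates. PAX8, a thyroid transcription factor, was at 38.2 FPKM in SW1736 wt and at 0.206, 0.123 and 0.146 FPKM in SW1736-PTX, 8505C wt and 8505C-PTX. NKX2-1, another thyroid transcription factor, had 0 FPKM in SW1736 wt but 36.3, 30.5 and 39.0 FPKM in the same 3 libraries. FOXE1, also a thyroid transcription factor, was at 26.6, 0.511, 0.0443 and 0.178 FPKM, and KRT19, an epithelial keratin, at 266, 0.535, 0 and 0 FPKM, in SW1736 wt, SW1736-PTX, 8505C wt and 8505C-PTX. In these 4 genes the library labelled SW1736-PTX was nearer to 8505C than to its named parent, and whether its cells came from SW1736 was not tested. "In SW1736" and "both lines" below follow the labels, and so carry this doubt. Values of the library are therefore also given against 8505C wt, and both comparisons share it. Of the 7 thyroid markers, 1 or 2 were above 0.5 FPKM in each library, their summed level lay between 30.7 and 64.8 FPKM, and TSHR and SLC5A5 were at 0 in all libraries. All 4 mesenchymal markers were above 0.5 FPKM in every library (sum 1554 to 4863 FPKM), as were 2 or 3 of 5 epithelial markers (sum 854 to 2411 FPKM), with CDH1 and EPCAM below 0.5 FPKM. Of the markers of other cell types, the leukocyte list summed to between 0.576 and 4.52 FPKM with CD3E at 0, the endothelial list to between 0.0187 and 55.9 FPKM, which was almost all CDH5 in 8505C wt, and the fibroblast list to between 0.119 and 6.81 FPKM. Their part in the results was not tested.

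AREG, EREG, EPGN and BTC lie in 1 cluster on chromosome 4, and the first 3 of them fell in 8505C-PTX, as described below. The 250 bases upstream of the RefSeq start of these 3 genes (GRCh38.p14) are printed to show what the clustered ligands share and where they differ, with HBEGF as the most abundant EGFR ligand outside the cluster and EGF as a ligand that was called higher in both PTX lines. Each runs 5′ to 3′ on the strand of its gene. Capitals mark the letters TGACGTCA (the cAMP response element, CRE), TGANTCA (the AP-1 element) and TATAAA (the TATA box), which were searched on both strands and chosen after the values were seen. The windows are AREG at chr4:74444886-74445135, EREG at chr4:74364895-74365144 and EPGN at chr4:74308220-74308469, all on the plus strand, HBEGF at chr5:140346604-140346853 on the minus strand, and EGF at chr4:109912633-109912882 on the plus strand.
AREG: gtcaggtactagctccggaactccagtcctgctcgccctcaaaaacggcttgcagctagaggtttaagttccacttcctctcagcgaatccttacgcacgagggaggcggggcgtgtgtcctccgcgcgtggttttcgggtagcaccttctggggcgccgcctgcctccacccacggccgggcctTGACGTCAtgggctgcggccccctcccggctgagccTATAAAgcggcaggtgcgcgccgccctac
EREG: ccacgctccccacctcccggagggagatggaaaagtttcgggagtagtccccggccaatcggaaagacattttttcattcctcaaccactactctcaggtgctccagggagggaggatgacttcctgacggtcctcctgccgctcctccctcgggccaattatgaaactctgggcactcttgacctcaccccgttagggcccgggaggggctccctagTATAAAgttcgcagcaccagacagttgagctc
EPGN: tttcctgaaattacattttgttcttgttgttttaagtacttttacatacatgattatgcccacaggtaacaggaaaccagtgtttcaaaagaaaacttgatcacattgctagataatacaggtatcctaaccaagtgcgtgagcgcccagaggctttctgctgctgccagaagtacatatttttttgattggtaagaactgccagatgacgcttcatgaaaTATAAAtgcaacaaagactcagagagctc
HBEGF: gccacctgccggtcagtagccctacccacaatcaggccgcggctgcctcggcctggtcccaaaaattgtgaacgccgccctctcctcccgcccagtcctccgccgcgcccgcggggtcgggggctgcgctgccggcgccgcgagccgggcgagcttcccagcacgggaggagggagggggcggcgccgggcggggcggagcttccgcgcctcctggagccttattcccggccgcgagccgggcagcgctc
EGF: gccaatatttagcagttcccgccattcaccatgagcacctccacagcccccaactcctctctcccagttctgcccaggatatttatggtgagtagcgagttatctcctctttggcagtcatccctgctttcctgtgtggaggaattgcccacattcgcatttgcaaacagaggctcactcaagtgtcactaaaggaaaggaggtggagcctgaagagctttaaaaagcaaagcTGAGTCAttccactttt

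AREG, EREG and EPGN held a TATA box, with its first base 29 bases upstream of the start in AREG, 32 in EREG and 29 in EPGN, whereas the window of BTC, the remaining ligand of the cluster, held none. These letters occurred in 10.7% of the 35116 promoter windows of the same length. AREG alone among these 5 windows held the full CRE, 65 bases upstream of the start, which was present in 1.65% of all windows. The AP-1 letters were found once, in EGF, as TGAGTCA 17 bases upstream of the start, and in 6.57% of all windows. The HBEGF window held none of these motifs but 5 copies of the GC box GGGCGG on either strand, some within a few bases of each other, and 42.6% of all windows held at least 1. A match describes letters only, and no binding was measured in these cells. Of the 10 genes, 8 had a RefSeq window; ERBB3 and NRG1 were the others.

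EGFR and ERBB2 were the abundant receptors in every library, and neither crossed the limit in either line. EGFR (chr7:55019032-55207338, plus strand, hg38) stood at 51.0 FPKM for SW1736 wt, 23.9 for SW1736-PTX, 28.1 for 8505C wt and 25.3 for 8505C-PTX. SW1736 wt was thus the high library, and the other 3 lay close together. In bulk RNA, fewer cells that express a gene and less of its RNA per cell cannot be told apart. EGFR-AS1, an antisense gene within EGFR, stayed at or below 0.158 FPKM. The log2 fold change of EGFR was -1.09 in SW1736, -0.15 in 8505C and -0.23 for SW1736-PTX against 8505C wt.

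ERBB2 (chr17:39688084-39728662, plus strand) stood at 17.0 FPKM for SW1736 wt, 23.0 for SW1736-PTX, 21.4 for 8505C wt and 33.7 for 8505C-PTX. Both PTX libraries were above their parents, by log2 fold changes of 0.43 and 0.65, which did not reach the limit. Against 8505C wt, SW1736-PTX differed by 0.10. The ratio of EGFR to ERBB2 in FPKM was 2.99 for SW1736 wt, 1.04 for SW1736-PTX, 1.31 for 8505C wt and 0.750 for 8505C-PTX, so ERBB2 exceeded EGFR only in 8505C-PTX. That order depends on the measure, since by read coverage scaled to depth EGFR stayed above ERBB2 in all 4 libraries, with ratios of 6.49, 2.25, 2.75 and 1.62 in the same order.

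ERBB3, the neuregulin receptor that feeds PI3K, was the only receptor called. It lies at chr12:56080025-56103507 on the plus strand and stood at 2.12 FPKM for SW1736 wt, 4.49 for SW1736-PTX, 0.367 for 8505C wt and 3.69 for 8505C-PTX. The low library was 8505C wt, and the PTX libraries were the highest. ERBB3 rose 10.1-fold in 8505C-PTX, a log2 fold change of 3.02 that ranked 610 from the top of 13794 compared genes, and 8.69-fold by depth-scaled coverage. In SW1736 its log2 fold change was 1.04, which did not pass the limit, but by depth-scaled coverage (0.882 in SW1736 wt and 2.99 in SW1736-PTX) it was 1.65 and did. Against 8505C wt, SW1736-PTX was 12.2-fold higher, with a log2 fold change of 3.30.

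ERBB4, the other neuregulin receptor, was close to absent from the tables. It stood at 0.0360, 0.0506, 0.0304 and 0.0125 FPKM in SW1736 wt, SW1736-PTX, 8505C wt and 8505C-PTX, which is about 21.3, 35.5, 16.0 and 8.12 reads over a locus on chromosome 2 of more than a megabase. It was not compared. Summed over the 4 receptors, the level lay between 49.9 FPKM in 8505C wt and 70.2 in SW1736 wt.

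**Figure D1:**
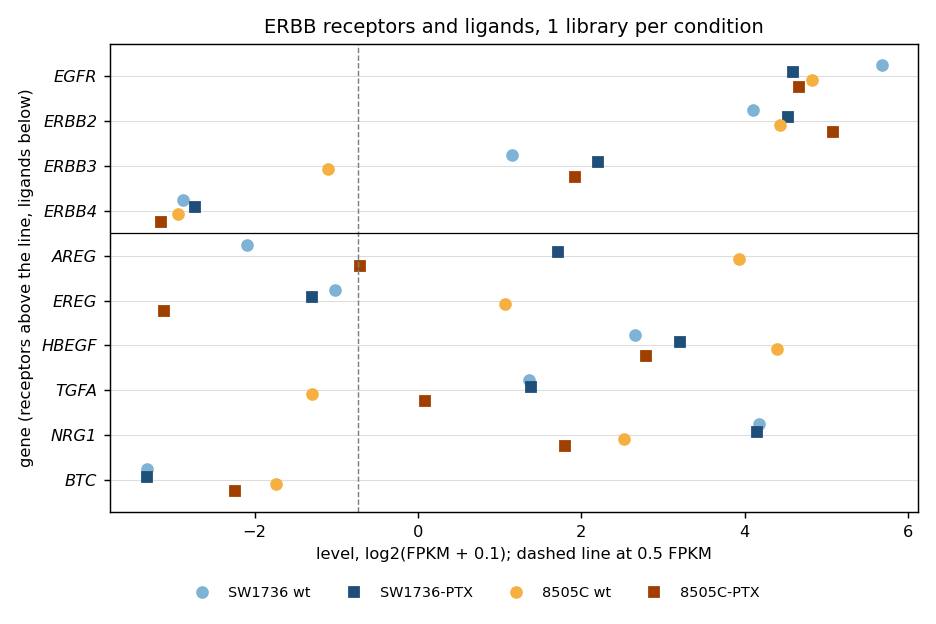
Level of each receptor (above the line) and ligand (below it) as log2(FPKM + 0.1) on the horizontal axis, with 1 point per library and a dashed line at 0.5 FPKM. EGFR and ERBB2 kept within about a log2 unit over the 4 libraries, whereas AREG ranged from 0.134 to 15.1 FPKM and ERBB3 from 0.367 to 4.49.

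AREG, amphiregulin, was called in both lines, in opposite directions. AREG (chr4:74445098-74455009, plus strand) stood at 0.134 FPKM for SW1736 wt, 3.18 for SW1736-PTX, 15.1 for 8505C wt and 0.511 for 8505C-PTX. The highest level was in the parental 8505C library and the lowest in the parental SW1736 library, so the lines were opposite at the start and the PTX libraries lay between them. These values rest on about 8.09, 227, 809 and 33.8 reads.

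AREG rose 23.7-fold in SW1736-PTX (interval 12.0 to 56.2), a log2 fold change of 3.81 that ranked 680 from the top of 14202 compared genes. In 8505C-PTX it fell 29.5-fold (interval 20.8 to 42.6), a log2 fold change of -4.63 and the 9th lowest of 13794 genes. The sign in SW1736 depended on the reference, because SW1736-PTX was 4.74-fold below 8505C wt (interval 4.09 to 5.52), with a log2 fold change of -2.21. Between the parental libraries, SW1736 wt was 112-fold below 8505C wt, and between the PTX libraries SW1736-PTX was 6.22-fold above 8505C-PTX.

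EREG, epiregulin, is the neighbour of AREG at chr4:74365143-74388760 on the plus strand. It stood at 0.393 FPKM for SW1736 wt, 0.308 for SW1736-PTX, 2.00 for 8505C wt and 0.0160 for 8505C-PTX, with 8505C wt the single library above the minimum. EREG fell 125-fold in 8505C-PTX (interval 47.8 to 455), where about 3.96 reads remained, and its log2 fold change of -4.18 was the 23rd lowest. In SW1736 it was below the minimum in both libraries and was not compared. SW1736-PTX was 6.48-fold below 8505C wt, a log2 fold change of -2.36.

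HBEGF, heparin-binding EGF-like growth factor, was the most abundant EGFR ligand in all 4 libraries. It lies at chr5:140332843-140346603 on the minus strand and stood at 6.20 FPKM for SW1736 wt, 9.13 for SW1736-PTX, 21.0 for 8505C wt and 6.84 for 8505C-PTX. As for AREG and EREG, 8505C wt was the high library. HBEGF fell 3.07-fold in 8505C-PTX (interval 2.83 to 3.32), and its log2 fold change of -1.60 was just past the limit, falling short at -1.49 with 1 in place of 0.1 added to FPKM. In SW1736 its log2 fold change was 0.55, and SW1736-PTX against 8505C wt gave -1.19, neither of which passed the limit.

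TGFA, transforming growth factor alpha, ran the other way between the lines. It stood at 2.47 FPKM for SW1736 wt, 2.50 for SW1736-PTX, 0.308 for 8505C wt and 0.965 for 8505C-PTX (chr2:70447280-70554015, minus strand). The SW1736 libraries were alike, with a log2 fold change of 0.02, and both lay above the 8505C libraries. In 8505C-PTX it was 3.14-fold above its parent (interval 2.2 to 4.16), a log2 fold change of 1.39 just inside the limit, which became 1.62 with 0.01 added to FPKM. SW1736-PTX against 8505C wt gave 2.67.

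BTC, betacellulin, was listed at 0 in both SW1736 libraries, where 3 reads would be 0.0231 and 0.0195 FPKM. It stood at 0.2 FPKM in 8505C wt and 0.111 in 8505C-PTX and was not compared. It was the only member of the chromosome 4 cluster that stayed below 0.5 FPKM in every library.

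NRG1, neuregulin 1, a ligand of ERBB3 and ERBB4 encoded on chromosome 8, stood at 17.9 FPKM for SW1736 wt, 17.7 for SW1736-PTX, 5.64 for 8505C wt and 3.39 for 8505C-PTX. By FPKM both SW1736 libraries were above both 8505C libraries, and neither line was called, with log2 fold changes of -0.01 and -0.72. The coverage column gave another picture of its level. Scaled to depth, at which the median row above 1 FPKM has 99.9% of its FPKM, the coverage of NRG1 was 0.327, 0.336, 0.107 and 0.0685 in the same order, or 1.83% to 2.02% of its FPKM. Only 10 to 12 of the 11468 to 12434 rows above 1 FPKM in a library had a percentage as low. On the coverage scale NRG1 was below 0.5 in all libraries and would not have been compared, so its rank among the ligands depends on which column is read. ERBB2 also had a low coverage, 38% of its FPKM, with almost the same percentage in all libraries.

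**Figure D2:**
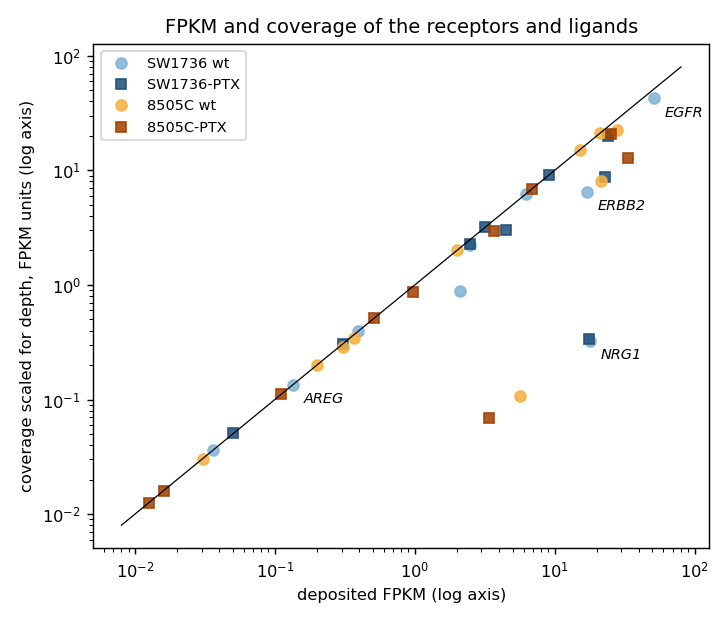
Depth-scaled coverage (vertical log axis, in FPKM units) against deposited FPKM (horizontal log axis), with 1 point for each of the 10 genes and library that has values above 0 and a line where both are equal. AREG and HBEGF lie on the line at 100% of their FPKM, ERBB2 lies below it near 38.1%, and NRG1 lies farthest below, at 1.83% to 2.02%.

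Of the 10 genes, 7 were compared in SW1736, and AREG was the only one called, as higher, beside 25.9% of all 14202 genes called in either direction there, 15.7% as higher and 10.2% as lower. In 8505C, 8 were compared, with ERBB3 higher and AREG, EREG and HBEGF lower, beside 20.9% of 13794 genes called, 15.0% as higher and 5.89% as lower. The median log2 fold change of the genes compared was 0.43 in SW1736, beside 0.01 over all genes, and -0.44 in 8505C, beside 0.11. Several of these genes passed the minimum through 1 library only: AREG in SW1736, and ERBB3, EREG and TGFA in 8505C. Such a gene was low in the other library by construction, so the counts are a description. Against 8505C wt, SW1736-PTX gave 3 higher (ERBB3, TGFA, NRG1) and 2 lower (AREG, EREG) of 8. Of all genes 20.4% were called there, 15.1% as higher and 5.23% as lower. ERBB3, TGFA and EREG passed the minimum in 1 library of that pair only. By depth-scaled coverage NRG1 was below the minimum in both, and 4 of 7 were called.

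**Figure D3:**
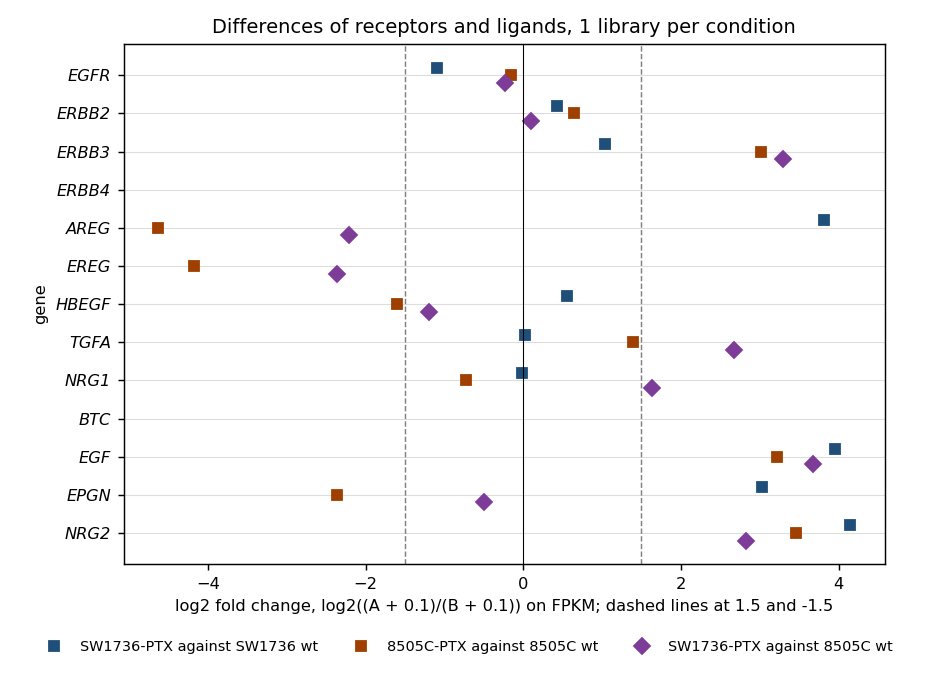
Log2 fold change of each receptor and ligand, with SW1736-PTX against SW1736 wt, 8505C-PTX against 8505C wt, and SW1736-PTX against 8505C wt as separate marks and dashed lines at 1.5 and -1.5. AREG lies at 3.81, -4.63 and -2.21, and EPGN at 3.03, -2.36 and -0.50, whereas EGF and NRG2 lie above 1.5 in all 3 comparisons.

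The parental libraries also differed in these genes. SW1736 wt was higher than 8505C wt for ERBB3, TGFA and NRG1, with log2 fold changes of 2.25, 2.66 and 1.65, and lower for AREG, EREG and HBEGF, with -6.02, -2.09 and -1.74. ERBB3 and NRG1 were not called by depth-scaled coverage, at which ERBB3 was 2.59-fold higher and NRG1 was below the minimum. By FPKM, 6 of 8 compared were called, and 4 were by coverage, beside 17.6% of all genes, 9.92% as higher and 7.73% as lower. AREG, EREG, ERBB3 and TGFA passed the minimum in 1 library of this pair only, so the count is a description. With both wt libraries above the minimum, 2 of 4 were called. Between the PTX libraries 2 of 7 were called, AREG at 2.42 and NRG1 at 2.35, both higher in SW1736-PTX. Of all genes 7.79% were called there, 4.09% as higher and 3.70% as lower. By depth-scaled coverage NRG1 was below the minimum in both PTX libraries, and 1 of 6 was called.

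The order of the levels differed between the libraries. By FPKM, EGFR was first in 3 of them and ERBB2 in 8505C-PTX. For SW1736 wt, NRG1, ERBB2, HBEGF, TGFA and ERBB3 followed, whereas for 8505C wt ERBB2, HBEGF, AREG, NRG1 and EREG did. These orders depend on the column read. By depth-scaled coverage, NRG1 at 0.327 was below TGFA at 2.23 and ERBB3 at 0.882 in SW1736 wt. On that scale ERBB2 at 8.15 was below HBEGF at 21.0 and AREG at 15.1 in 8505C wt. In 8505C-PTX it placed EGFR, at 20.8, above ERBB2, at 12.8. With 1 library each, whether neighbours in these orders differ beyond their spread is unknown.

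The makeup of the EGFR ligands differed too. The summed FPKM of AREG, EREG, HBEGF, TGFA, BTC, EGF and EPGN was 9.29 for SW1736 wt, 18.0 for SW1736-PTX, 40.7 for 8505C wt and 9.81 for 8505C-PTX. The 8505C wt library was the high one, and 8505C-PTX came to nearly the level of SW1736 wt. HBEGF took 66.8%, 50.6%, 51.6% and 69.8% of that sum in the same order. AREG took 1.44%, 17.6%, 37.0% and 5.21%, so that it was the next ligand after HBEGF in SW1736-PTX and 8505C wt. TGFA held that place in SW1736 wt with 26.6%, but took 0.756% in 8505C wt.

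EGF, EPGN and NRG2 belong to a list of 5 other EGF-type ligands that was examined beside the 10 genes, and all 3 were called in both lines. Each was compared only through the library of a pair where it was high, and none was compared when both libraries had to exceed 0.5 FPKM. EGF, the founding member of the family, was listed at 0 for SW1736 wt, and it had 1.45 FPKM for SW1736-PTX, 0.0219 for 8505C wt and 1.03 for 8505C-PTX. Both PTX libraries were high and both parents low. In SW1736-PTX it stood 151-fold above the level that 3 reads would give in SW1736 wt. The interval against SW1736 wt itself ran from 123-fold upward. In 8505C-PTX EGF was 47.2-fold higher than in its parent (interval 21.8 to 131).

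NRG2, a neuregulin, showed the same order, at 0.0138 FPKM for SW1736 wt, 1.92 for SW1736-PTX, 0.183 for 8505C wt and 3.02 for 8505C-PTX. It was 139-fold higher in SW1736-PTX (interval 40.3 to 577), where the parent held about 2.61 reads, and 16.4-fold higher in 8505C-PTX (interval 11.3 to 24.1). Both genes also passed the limit for SW1736-PTX against 8505C wt, with log2 fold changes of 3.67 for EGF and 2.83 for NRG2. The neuregulins summed over NRG1 to NRG4 were 18.0, 19.7, 5.88 and 6.48 FPKM, but 0.434, 2.21, 0.349 and 3.10 by depth-scaled coverage, on which scale NRG2 made up most of the sum in the PTX libraries. NRG3 was at 0 in all libraries, and NRG4 did not exceed 0.0940 FPKM.

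EPGN, epigen, followed AREG. It stood at 0.0910 FPKM for SW1736 wt, 1.46 for SW1736-PTX, 2.10 for 8505C wt and 0.330 for 8505C-PTX. It rose 16.0-fold in SW1736-PTX and fell 6.37-fold in 8505C-PTX, with log2 fold changes of 3.03 and -2.36. Against 8505C wt, SW1736-PTX differed by -0.50.

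The cluster spans 486.202 kb from EPGN to BTC, with 48.34 kb between EPGN and EREG, 56.338 kb between EREG and AREG, and 291.229 kb between AREG and BTC. Of the 11 genes within 500 kb of AREG, 6 were compared in 8505C and 3 fell: EREG, EPGN and PARM1, the last with a log2 fold change of -2.57. Over all genes, 5.89% were called lower there. These 3 passed the minimum in 8505C wt only, PARM1 at 0.577 FPKM, so the count is a description. The others were not called, with -0.70 for MTHFD2L, 1.35 for CXCL2 and 0.75 for CXCL3, a pair of chemokine genes. CXCL1, a further chemokine gene, lies beyond 500 kb of AREG but within 500 kb of EREG and EPGN, and it fell in 8505C, with 32.7 FPKM in wt and 7.82 in PTX cells and a log2 fold change of -2.05. In SW1736, 3 of the neighbours were compared, EPGN rose, and MTHFD2L and CXCL2 had log2 fold changes of 0.58 and 1.45. Over all genes, 15.7% were called higher in SW1736. Genes other than the nearest neighbours were named after their values were seen.

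**Figure D4:**
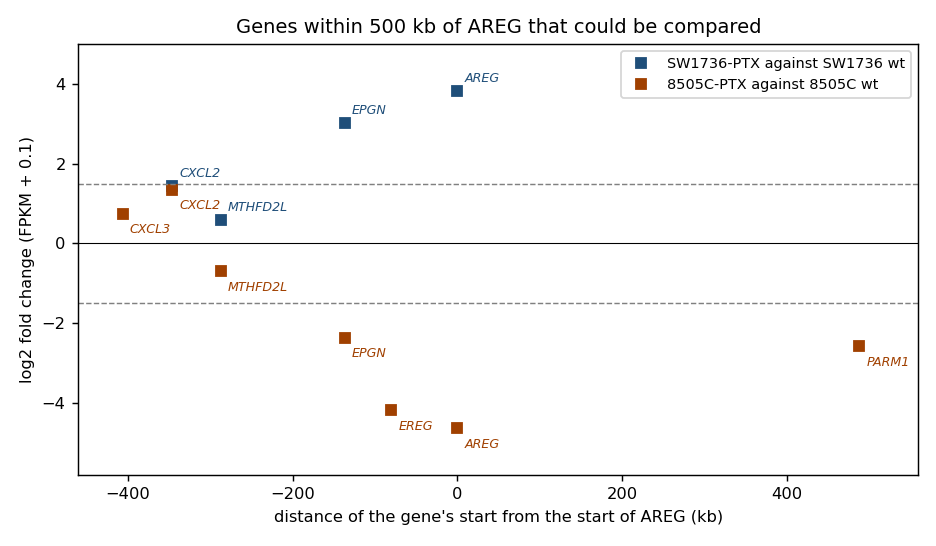
Log2 fold change of the compared genes around AREG, plotted against the distance of each gene's start from the AREG start in kb, for both lines. In 8505C, EPGN, EREG and AREG lie at -2.36, -4.18 and -4.63, while CXCL2 lies at 1.35.

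Around HBEGF, 22 of 37 neighbours were compared in 8505C, with 4 higher, 2 lower and a median log2 fold change of 0.17, and the nearest, PFDN1 and ANKHD1, had -0.79 and -0.65. Around ERBB3, 38 of 45 were compared in 8505C, with 5 higher, 1 lower and a median of 0.24, and of the nearest, PA2G4 lay just inside the lower limit and RPL41 had 0.25. The neighbours of these genes therefore had medians near that of all genes, 0.11. Of all genes in 8505C, 20.9% were called, 15.0% as higher and 5.89% as lower.

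The pathway lists are read beside the 25.9% of all genes called in SW1736 and the 20.9% called in 8505C, with medians of 0.01 and 0.11. Sheddases and their iRhom partners release the ligands from the cell surface. In SW1736, 2 of 9 compared (22.2%) were lower, with a median log2 fold change of -0.26, and in 8505C 1 of 8 (12.5%) was lower, with a median of -0.06. ADAM12, a metalloprotease able to cut HBEGF, was the shared one, at 3.40 FPKM for SW1736 wt, 0.462 for SW1736-PTX, 2.15 for 8505C wt and 0.373 for 8505C-PTX. Both PTX libraries were below both parents, with log2 fold changes of -2.64 and -2.25, and SW1736-PTX against 8505C wt gave -2.00. ADAM8 fell in SW1736, from 1.27 to 0.173 FPKM, with 0.0632 FPKM in 8505C wt. ADAM17, the main sheddase of AREG and TGFA, stood between 12.2 and 20.4 FPKM, and ADAM10 between 32.6 and 40.9, with no call; these genes were named after their values were seen.

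Adaptors and proximal effectors carry the signal from the phosphorylated receptors. Of 24 compared in SW1736, 4 were higher and 2 lower (25.0% called), with a median of -0.09, and of 23 in 8505C, 3 were higher and none lower (13.0%), with a median of 0.43. SHC2, SHC4 and GAB2 rose in both lines. SHC2, an adaptor best known from neurons, was listed at 0 for SW1736 wt, and it had 1.41 FPKM for SW1736-PTX, 0.0368 for 8505C wt and 1.05 for 8505C-PTX. SHC4 stood at 0.0120, 1.02, 0.0864 and 1.13 FPKM in the same order. For both, the PTX libraries were above both parents, and only the PTX library of each pair passed the minimum.

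GAB2, a docking protein that recruits PI3K, stood at 0.523 FPKM for SW1736 wt, 3.11 for SW1736-PTX, 2.49 for 8505C wt and 7.27 for 8505C-PTX. Its log2 fold changes were 2.36 and 1.51, but only 0.31 for SW1736-PTX against 8505C wt, which did not pass the limit. The value of 1.51 in 8505C was just past the limit, and the call was lost by TPM (5.68 in wt and 16.2 in PTX cells). SHC3 was called in SW1736 only, from 0.0194 to 10.6 FPKM, with 2.48 and 3.70 FPKM in the 8505C libraries; the difference between the lines was not tested. GRB7 and PIK3R1, named after their values were seen, were the genes lower in SW1736, from 1.50 to 0.0305 FPKM and from 6.63 to 1.98 FPKM. In 8505C wt they stood at 0.0722 and 4.32 FPKM.

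Inhibitors, ubiquitin ligases and endocytic regulators limit receptor signalling. Of 24 compared in each line, 2 were higher and 2 lower in SW1736 (16.7% called, median -0.10), and 2 were higher and none lower in 8505C (8.33%, median 0.25). ERRFI1, also called MIG6, which binds and blocks the EGFR kinase, stood at 27.0 FPKM for SW1736 wt, 3.86 for SW1736-PTX, 18.9 for 8505C wt and 21.6 for 8505C-PTX. SW1736-PTX was the low library against both parents, with log2 fold changes of -2.78 and -2.26, while 8505C differed by 0.20. SPRY2, a feedback inhibitor of RAS-ERK signalling, stood at 23.1, 4.58, 14.5 and 8.14 FPKM in the same order and fell in SW1736, with a log2 fold change of -2.31.

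Its relative SPRY1 rose in both lines, reaching 5.13 FPKM from 1.49 in SW1736 and 18.7 from 2.25 in 8505C. SW1736-PTX against 8505C wt gave 1.15 for SPRY1, which did not pass the limit. CBLB, a ubiquitin ligase that marks EGFR for degradation, rose from 1.42 to 8.34 FPKM in 8505C, and in SW1736 it had 2.39 and 6.75 FPKM, whose log2 fold change of 1.46 was just inside the limit. RNF41, a ligase for ERBB3 named after its values were seen, rose in SW1736 from 5.12 to 22.4 FPKM. Against 8505C wt, at 12.2 FPKM, SW1736-PTX gave 0.87 for RNF41, which did not pass the limit.

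Transcripts known to be induced by EGF were called in both directions. Of 15 compared in each line, 4 were higher and 1 lower in SW1736 (33.3% called), with a median of 0.45, and 1 was higher and 1 lower in 8505C (13.3%), with a median of -0.10. FOSL1, an AP-1 subunit and a usual readout of ERK activity, stood at 423 FPKM for SW1736 wt, 54.0 for SW1736-PTX, 229 for 8505C wt and 30.5 for 8505C-PTX. Both PTX libraries were far below both parents, with log2 fold changes of -2.97 and -2.91. PTGS2, which encodes cyclooxygenase, went the opposite way: SW1736 wt had 0 FPKM, and SW1736-PTX, 8505C wt and 8505C-PTX had 14.2, 1.83 and 13.3. Against 8505C wt, SW1736-PTX gave -2.09 for FOSL1 and 2.88 for PTGS2. The other genes higher in SW1736 were DUSP5, DUSP4 and FOS, named after their values were seen. Their log2 fold changes were 2.18, 1.69 and 1.79 in SW1736 and -0.68, 0.62 and 0.59 in 8505C. SW1736-PTX and 8505C wt had 50.9 and 55.1 FPKM for DUSP5, 33.1 and 10.5 for DUSP4, and 1.53 and 1.63 for FOS.

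**Figure D5:**
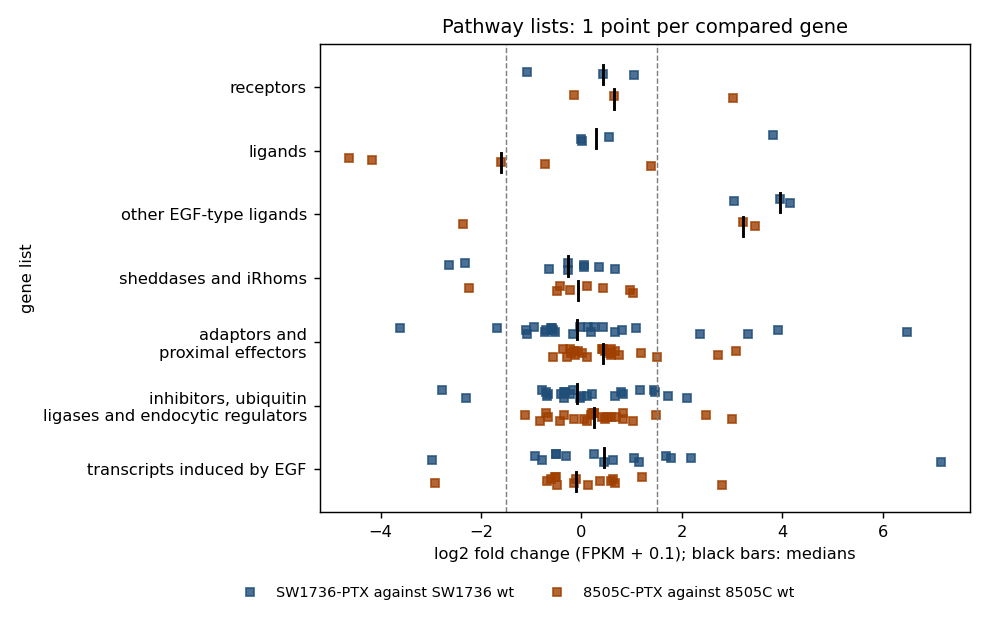
Log2 fold change of every compared gene of the receptor, ligand and pathway lists, 1 point per gene and line, with a black bar at each list's median and dashed lines at 1.5 and -1.5. Most points lie between the dashed lines, and the 3 other EGF-type ligands that lie outside them had passed the minimum in 1 library of each pair only.

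Of the 80 genes of all these lists that were compared in both lines, 9 (11.2%) were called in the same direction in both, beside 1301 of 13304 over all genes (9.78%). They were EGF, NRG2, SHC2, SHC4, GAB2, SPRY1 and PTGS2 as higher and ADAM12 and FOSL1 as lower. Of these, EGF, NRG2, SHC2, SHC4 and ADAM12 exceeded 0.5 FPKM only in the library of each pair where they were high. PTGS2 did so in the SW1736 pair. Such calls follow in part from the filter, so the count is a description. AREG and EPGN were called in opposite directions, beside 144 of the 13304 over all genes.

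The genes whose pattern over the 4 libraries was most like that of EGFR, by the root mean square difference of centred log2(FPKM + 0.1) among 10133 genes above 5 FPKM, were SCAF1, NUPL2 and GBF1, at 0.02 to 0.03. The pattern was a common one, since 871 genes lay within 0.25 of it. For NRG1, the ligand with the highest mean FPKM, they were SURF4, ZNF786 and CUL1 at 0.10, 0.12 and 0.22, and 4 genes lay within 0.25. By depth-scaled coverage NRG1 was below 0.5 in every library, so its choice depends on the column read. For HBEGF, added as the next by mean FPKM, 39 genes lay within 0.25. For AREG, added after its values were seen, no gene lay within 0.25, and SPRR2D was nearest at 0.42. With 4 libraries such likeness is a description.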

How the data were processed

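One mRNA library per condition (4 in all) was sequenced with single-end reads of 75 bases. As the study's methods and labels state, the authors demultiplexed with bcl2fastq 2.20, masked adapters with Cutadapt, trimmed with ERNE, aligned to hg38 with STAR and quantified genes with StringTie; the annotation is not given in the sources used here. The deposited FPKM column holds fragments as StringTie scales them to gene length and depth. In the deposited TPM column every library adds up to an equal total. The deposited coverage (signal) column is the mean read depth per base, not normalized by the authors. No read counts were used, and no count model could be fitted.

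From these files, FPKM rows of 1 gene name were summed and log2((A + 0.1)/(B + 0.1)) computed, with the limits of 0.5 FPKM and 1.5 (log2) that the study's methods use. Libraries were grouped by their titles. Depth (43.5 to 57.9 M reads) came from coverage per FPKM, and approximate reads from coverage and the transcript lengths of GENCODE release 44. Depth-scaled coverage is coverage divided by that ratio. Such reads give counting error only and say nothing of the spread between cultures. The alternatives changed the pseudocount, filter, unit, centring, repeated names, fold limit and reference library, and depth-scaled coverage was added after the data were seen. Promoter windows came from RefSeq (GRCh38.p14), with 13 of 15 genes matched.

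The members and lists were chosen with earlier results of these data known. Named genes were all 10 members, list genes called in both lines in 1 direction, the 2 largest calls per list and line, the 3 genes most like EGFR and the most abundant ligand, and the 2 nearest expressed neighbours of called members; others are said to be named after their values were seen. Python 3.11.15, NumPy 2.4.6, pandas 2.3.3, SciPy 1.17.1 and matplotlib 3.10.9 were used. Some marker genes are not reported here.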

Additional observations from a re-analysis of the deposited data

Results flagged for a closer look

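AREG and EPGN stood out because they were called in opposite directions in the lines. The log2 fold change of AREG was 3.81 in SW1736 and -4.63 in 8505C, and that of EPGN was 3.03 in SW1736 and -2.36 in 8505C. With 1 library per condition, the difference between the lines was not tested. They were the 2 such genes among the 80 list genes compared in both lines, beside 144 of 13304 over all genes. Of the 144, 57 were lower in 8505C-PTX. The values in SW1736 rest on the library labelled SW1736-PTX, and against 8505C wt AREG was at -2.21 and EPGN at -0.50.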

How the results depend on the processing

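The number of the 10 genes called was within 1.5 times the number reported in 40 of the 51 recomputations. In SW1736, where 1 was called, the number was 0 when both libraries had to exceed 0.5 FPKM, 3 with a limit of 1 on the log2 scale, 2 by depth-scaled coverage and 5 with 8505C wt as the reference. In 8505C, where 4 were called, it was 2 with both libraries above 0.5 FPKM. Between the wt libraries, 6 became 3 with 1 added to FPKM and 2 with both libraries above the minimum. Between the PTX libraries, 2 became 1 with 1 added to FPKM and 1 by depth-scaled coverage. For SW1736-PTX against 8505C wt, 5 became 2 with 1 added to FPKM and 2 with both libraries above the minimum. Of the genes' own log2 fold changes, 122 recomputations left the call unchanged, 6 brought a call, 1 lost it (HBEGF in 8505C, -1.49 with 1 added to FPKM), and 1 reversed: AREG for SW1736-PTX, which was -2.21 with 8505C wt as the reference. Values near 0 could change sign without a call: TGFA in SW1736 was -0.03 by TPM, and NRG1 in SW1736 was 0.07 when centred and 0.03 by depth-scaled coverage. BTC was at -1.58 for SW1736-PTX against 8505C wt, but below the minimum in both libraries and so not called. Centring moved all values by less than 0.1. For the pathway lists, 86 recomputed counts stayed within 1.5 times the count reported and 19 did not. In SW1736, the 6 adaptors called became 1 with 1 added to FPKM and 2 with both libraries above the minimum. Under that filter, the 2 sheddases and the 3 other EGF-type ligands called there became 0. The causes were not tested, and a stricter filter compares fewer genes by construction. With 8505C wt as the reference, 20.4% of all genes were called. Under the other settings the share of all genes called was not recomputed, so these shifts are not results about the 10 genes. No paired analysis was possible because each comparison within a line has 1 library on each side and comes from no test, and for the same reason no library could be left out. A fit over both lines with the line as a block was not run.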

Other observations

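The genes around EGFR on chromosome 7 differed in the same direction as EGFR in SW1736. Of the 9 genes within 500 kb, 5 were compared there, with a median log2 fold change of -1.25, 1 lower and none higher. Over all genes in SW1736 the median was 0.01, with 25.9% called in either direction and 10.2% called lower. Between SW1736 wt and SW1736-PTX, LANCL2 had 7.63 and 2.70 FPKM, SEC61G 133 and 66.6, and VOPP1 44.6 and 18.7, with log2 fold changes of -1.47, -1.0 and -1.25 beside -1.09 for EGFR. ELDR, a noncoding RNA gene, was called lower, from 1.08 FPKM to a listed 0, and it passed the minimum in SW1736 wt only. In 8505C the median over 4 compared neighbours was -0.29, and for SW1736-PTX against 8505C wt it was -0.33. These genes were named after their values were seen, and no DNA copy number was measured.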
